A study of Homo sapiens with 24 samples.

Results

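Peaks of RNA precipitated with an antibody against m6A in U2OS cells formed 20811 regions. Of these, 413 (1.98%) carried a peak in both conditions with UV, METTL3 KO and WT, and in neither condition without UV. They were found by pooling the peaks of the 4 deposited lists, merging peaks that shared at least 1 base on the same transcript, and keeping the regions with a peak in KO plus UV and in WT plus UV and with none in KO minus UV or WT minus UV. The members were chosen by measured values, the presence or absence of a peak in each list, so their absence without UV is the rule and not a finding. The 413 regions lay on 394 transcripts, of which 389 were matched to 389 genes. Most transcripts held 1 such region, 19 held 2, and none held more.

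The mark m6A, N6-methyladenosine, sits on adenosines within mRNA. It was mapped by precipitating RNA with an antibody against the mark and sequencing it beside an input. U2OS is a cell line from a human osteosarcoma. Its cells were knocked out (KO) for METTL3 or wild type (WT), grown with 10 µM BrdU in all groups, and either given UVC at a 50 J dose and lysed after 2 min or not irradiated. All RNA was poly(A) selected. The labels do not say whether the knockout was 1 clone. With UV there were 2 KO IP libraries (replicates labelled 1 and 3) and 4 WT ones, and without UV 3 of each genotype, each with an input. The values are 1 peak list per condition, with 9471, 15465, 13852 and 13989 peaks in the same order. A peak is given by its bases along a RefSeq transcript, counted from 1, without a score, count or depth. There are no values per replicate, so no difference can be compared with replicate spread, and the depth behind a peak is unknown. A transcript with fewer copies and one with less of the mark cannot be told apart in a peak list.

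The mark is written by a nuclear complex in which METTL3 is the catalytic subunit, METTL14 its partner, and WTAP, VIRMA, RBM15 and RBM15B help to bring it to its target RNAs. Reader proteins with a YTH domain bind the mark, YTHDC1 in the nucleus and others in the cytoplasm. Antibodies against m6A also bind m6Am, a related mark next to the cap that PCIF1 writes on transcripts that begin with adenosine. Peaks at a transcript's first bases can therefore hold either mark. METTL3 KO cells still had 9471 listed peaks with UV and 13852 without UV. Whether a KO peak holds m6A cannot be read from the lists and was not tested.

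The sequences shown here are the gene starts of members that began in the first 30 bases of their transcript, since regions at the transcript start turned out to be frequent among the members. Each shows 70 bases before the annotated start in lower case and the first 30 bases of the gene in capitals, from RefSeq on GRCh38.p14. The first 5 had the longest stretch shared by the KO and the WT peak among genes with a single annotated start at the outer end of the gene. YTHDC1, POLR2B, PARP2 and HPF1 were added for their roles in reading m6A, transcription and the response to damage.
STYXL1, chr7:76047971-76048070, minus strand: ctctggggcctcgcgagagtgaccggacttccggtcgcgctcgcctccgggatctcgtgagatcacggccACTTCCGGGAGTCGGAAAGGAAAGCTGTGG
B3GALNT2, chr1:235504423-235504522, minus strand: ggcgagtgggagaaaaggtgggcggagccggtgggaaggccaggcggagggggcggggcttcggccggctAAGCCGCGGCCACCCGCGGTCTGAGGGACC
PDCD7, chr15:65133779-65133878, minus strand: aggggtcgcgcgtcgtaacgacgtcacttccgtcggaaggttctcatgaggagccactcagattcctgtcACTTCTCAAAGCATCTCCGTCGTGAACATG
NMU, chr4:55636764-55636863, minus strand: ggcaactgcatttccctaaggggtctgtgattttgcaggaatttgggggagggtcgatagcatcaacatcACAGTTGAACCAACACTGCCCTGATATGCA
SEC61G, chr7:54759182-54759281, minus strand: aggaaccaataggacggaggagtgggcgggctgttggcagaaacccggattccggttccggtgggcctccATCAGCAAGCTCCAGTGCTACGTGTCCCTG
YTHDC1, chr4:68350061-68350160, minus strand: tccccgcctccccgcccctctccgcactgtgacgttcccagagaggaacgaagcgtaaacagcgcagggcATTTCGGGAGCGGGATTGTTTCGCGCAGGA
POLR2B, chr4:56978826-56978925, plus strand: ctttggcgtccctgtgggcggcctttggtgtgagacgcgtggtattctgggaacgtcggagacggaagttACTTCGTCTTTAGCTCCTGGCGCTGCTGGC
PARP2, chr14:20343565-20343664, plus strand: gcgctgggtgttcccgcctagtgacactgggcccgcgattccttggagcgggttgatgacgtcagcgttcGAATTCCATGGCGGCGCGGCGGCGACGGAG
HPF1, chr4:169757915-169758014, minus strand: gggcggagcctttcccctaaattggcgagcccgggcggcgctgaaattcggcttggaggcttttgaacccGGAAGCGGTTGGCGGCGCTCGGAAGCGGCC
Of these 9 genes, 7 begin with A and 2 with G. The deposited lists name a transcript but not its genomic start, so the first base of the listed transcript may differ from the one shown. The STYXL1 member ran from base 9 to 240 in KO plus UV and from 26 to 270 in WT plus UV. On B3GALNT2, a glycosyltransferase gene, both peaks began at base 25 and shared 196 bases. On PDCD7, which encodes a protein of the minor spliceosome, the KO plus UV peak covered 19 to 193 and the WT plus UV peak 20 to 190. NMU, a neuropeptide gene, was covered at 1 to 171 in KO plus UV and 1 to 170 in WT plus UV. SEC61G, a subunit gene of the channel that moves proteins into the endoplasmic reticulum, was covered at 2 to 157 in KO plus UV and 3 to 159 in WT plus UV. These 5 were picked for their long shared stretch, which fixes how alike the KO and WT peaks look.

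Among the 15 possible patterns of lists, the one with UV in both genotypes had 413 regions and was the smallest but for those of all but WT plus UV (289) and of KO plus UV with WT minus UV (173). Its mirror, a peak in KO minus UV and WT minus UV and none with UV, held 769 regions (3.70%). The longest of the mirror regions lay on INO80D, DCHS1 and PURB. Regions with a peak in every list numbered 5340. List size and the number of IP libraries (2 and 4 with UV, 3 and 3 without) differ between the conditions, and their part in these counts was not tested.

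**Figure D1:**
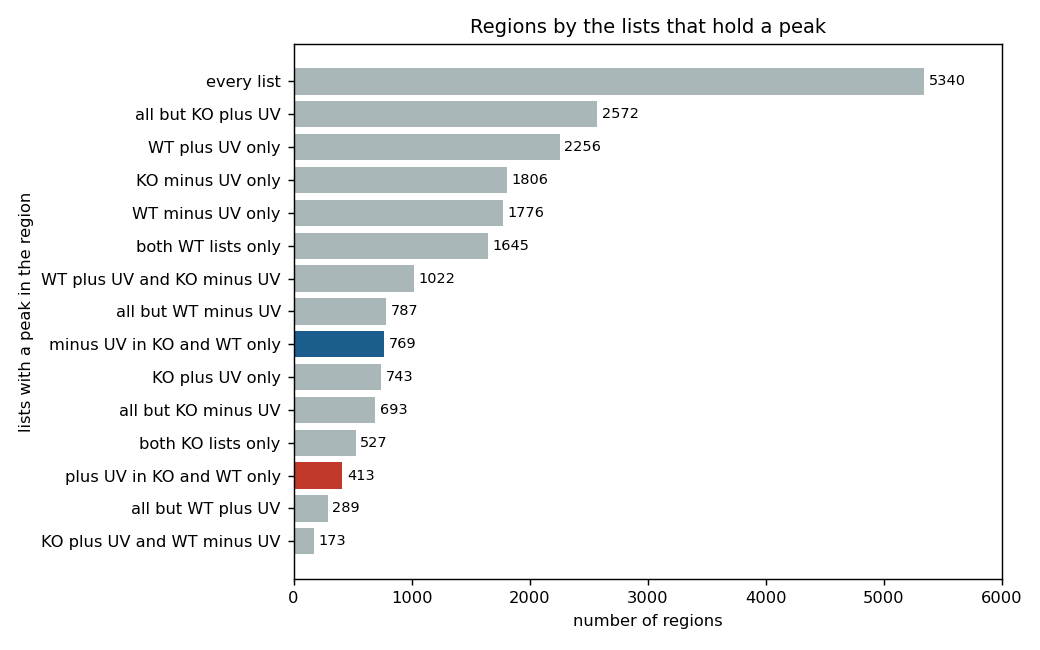
Number of regions for each pattern of lists (x axis, regions; y axis, the lists that hold a peak). The regions with UV only in both genotypes (red) number 413 and their mirror without UV (blue) 769, while 5340 regions are in every list.

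Seen from the KO lists, 2022 regions (9.72% of all) had a peak in KO plus UV and not in KO minus UV, and the 413 were 20.4% of them. Seen from the WT lists, 4478 regions (21.5% of all) had a peak with UV and not without it, and the 413 were 9.22% of them. A KO peak with UV alone was found in 6.76% of the regions that WT cells carried under both treatments and in 5.75% of those that they carried without UV alone. Of the 4478, 2256 (50.4%) had no KO peak in either list, 1022 (22.8%) a KO peak without UV alone and 787 (17.6%) a KO peak under both treatments. These shares describe the counts that the rule itself fixes, and no test was made of them.

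Within a member, the KO and the WT peak lay close together. The distance between their centres had a median of 16 bases, with quartiles at 5.5 and 35 bases and a highest value of 204.5 bases on TCOF1. The median was 18.5 bases between the KO and WT peaks of the mirror regions and 12 bases between the KO plus UV and WT plus UV peaks of regions found in every list. In 9 members both peaks had the same start and end. On TYMS, the thymidylate synthase that makes a precursor of DNA, both ran from base 31 to 130. At 100 bases these have the narrowest width in the lists. The stretch covered by both peaks had a median of 135 bases, and in 12 members it was under 50 bases, the shortest being 12 bases on SNX8, a sorting nexin gene. A member's peaks overlap by definition, so closeness is partly fixed by the rule.

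Member peaks were narrower than those of the whole UV lists, but not than regions of a single UV list. The KO plus UV peaks of members had a median width of 160 bases, against 176 bases in the whole list, and the WT plus UV peaks 170 bases, against 189 bases. Peaks of exactly 100 bases, the narrowest in the lists, made up 12.1% of the KO peaks of members and 9.59% of the whole KO plus UV list. For WT they made up 10.9% and 4.57%. Regions of KO plus UV alone had a median width of 139 bases and those of WT plus UV alone 160 bases. Width comes from the lists that chose the members and is given as a description.

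The members fell into regions on transcripts with no peak at all without UV and regions that joined other peaks. The first kind numbered 190 (46.0%, 95% Wilson interval 41.3 to 50.8) on 179 transcripts, and the second 223 on 215 transcripts. In the mirror set, 276 of 769 regions (35.9%, 32.6 to 39.3) lay on transcripts with no peak with UV. Both shares come from the lists that chose the regions and are given as a description. The last base under any listed peak had a median of 1822 on member transcripts and 3339 on mirror transcripts. Over all transcripts with a peak the median was 1842, so the mirror set stood apart and the members did not. The part of the difference between members and mirror in the shares was not tested. On 123 of the 179 transcripts, the member was the only listed peak, 1 in KO plus UV and 1 in WT plus UV. Of all transcripts with a peak in both UV lists, 5015 in number, 191 had none without UV, and on 12 of these the KO and WT peaks did not overlap. At the gene level, 188 of 9560 genes (1.97%) had a peak in both UV lists and in no list without UV, and 217 (2.27%) had the reverse. A region found in every list was present on 28.2% of the transcripts with members and on 38.7% of all transcripts with a peak. The 179 transcripts can hold no such region, so the first share is partly fixed by the rule.

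Where peaks without UV did exist on the transcript, the nearest lay at a median of 450 bases from the member, with quartiles at 140 and 1143 bases. Of the 223 members, 137 lay upstream of it and 86 downstream. The 137 include 45 that began in the first 100 bases of the transcript, where little room is left for a peak further upstream. A peak without UV came within 100 bases of 42 members, and more than 1000 bases separated 61 members from one. The closest members were CANT1, INAVA and PPP1R8, each with 1 base between the region and a peak without UV. On CANT1, a nucleotidase of the secretory pathway, the KO plus UV and WT plus UV peaks at 1631 to 1743 and 1631 to 1744 adjoined a further peak that all lists held, which began at base 1746 in KO minus UV and at 1748 in WT minus UV. Just outside the rule stood BAG4, whose region with UV shared 2 bases with a WT minus UV peak, TOB2 with 17 bases and SIX4 with 25. Only 2 regions of both UV lists were kept out by 20 shared bases or fewer.

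**Figure D2:**
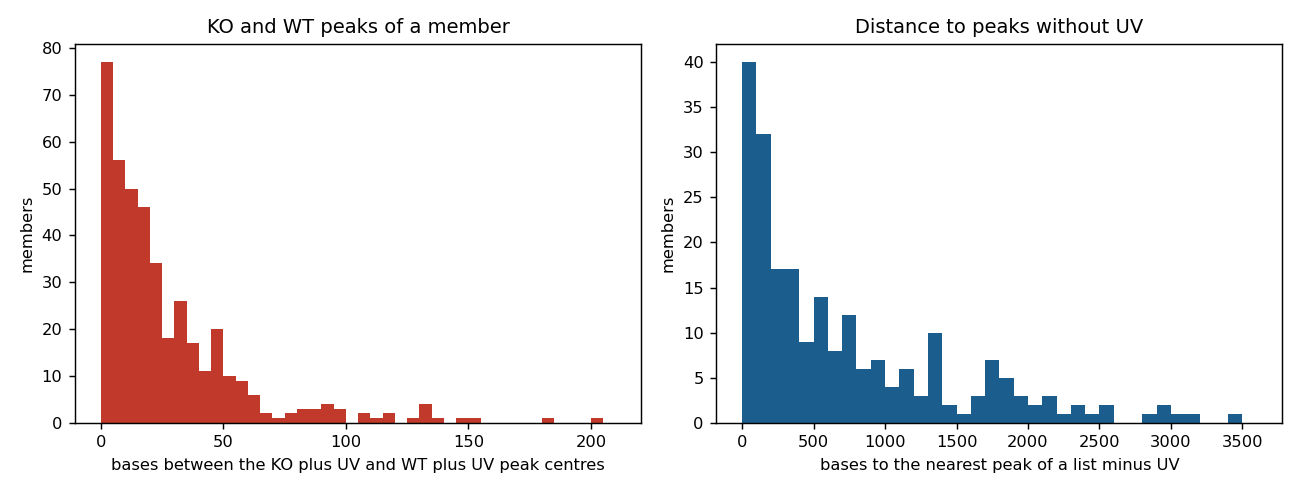
Left, bases between the centres of the KO plus UV and WT plus UV peaks of each of the 413 members; right, bases from a member to the nearest peak of a list minus UV, for the 223 members whose transcript has one. The first distance has a median of 16 bases and the second of 450 bases.

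A region at the transcript start was more frequent among the members than among other regions. Position was not used by the rule. Of the 413 members, 98 (23.7%, 19.9 to 28.1) began in the first 100 bases, against 2824 of 20398 other regions (13.8%), a difference of 9.88 percentage points (95% Newcombe interval 6.01 to 14.2). Mirror regions began there in 64 of 769 cases (8.32%), and the difference of the members from them was 15.4 points (11 to 20.1). All these intervals cover counting error alone and take regions as independent, although regions of 1 transcript share their source. With 1 region per transcript the share was 24.1%, against 13.7% of the other regions.

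The high share at the start was not particular to the members. Regions of both UV lists and WT minus UV, without KO minus UV, began in the first 100 bases in 25.3% of cases, and the members differed from them by -1.52 points (-6.64 to 3.8). Regions of both UV lists and KO minus UV, without WT minus UV, did so in 20.1%, a difference of 3.65 points (-1.19 to 8.73). The members did exceed regions of a single UV list, by 8.12 points (3.36 to 13.1) for KO plus UV alone and by 9.59 points (5.46 to 14.1) for WT plus UV alone. The share did not go with peaks in both UV lists throughout. Regions of every list stood at 13.8%, and those of KO plus UV with WT minus UV at 20.8% (15.4 to 27.5). Over whole lists the share of peaks that began there was 14.3% for KO and 13.7% for WT with UV, and 11.8% for KO and 12.7% for WT without UV.

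Transcript extent, the last base under any listed peak, moved with this share. It is set by the same peaks, so a transcript whose only peaks lie at its start falls among the shortest, and the quartiles describe the share without separating it from transcript length, whose part was not tested. In the shortest of 4 quartiles of extent over all regions, up to 1510 bases, 63 of 158 members (39.9%) began in the first 100 bases, against 29.0% of other regions, a difference of 10.9 points (3.44 to 18.7). From the second to the longest quartile the members stood at 16.2%, 12.5% and 10.0%, and other regions at 11.3%, 9.40% and 5.88%. The intervals of those 3 differences included 0. Set against the mirror regions, the differences were 13.6, 8.86, 7.5 and 6.0 points in the 4 quartiles, and the interval included 0 in the longest one, where 50 members remained.

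**Figure D3:**
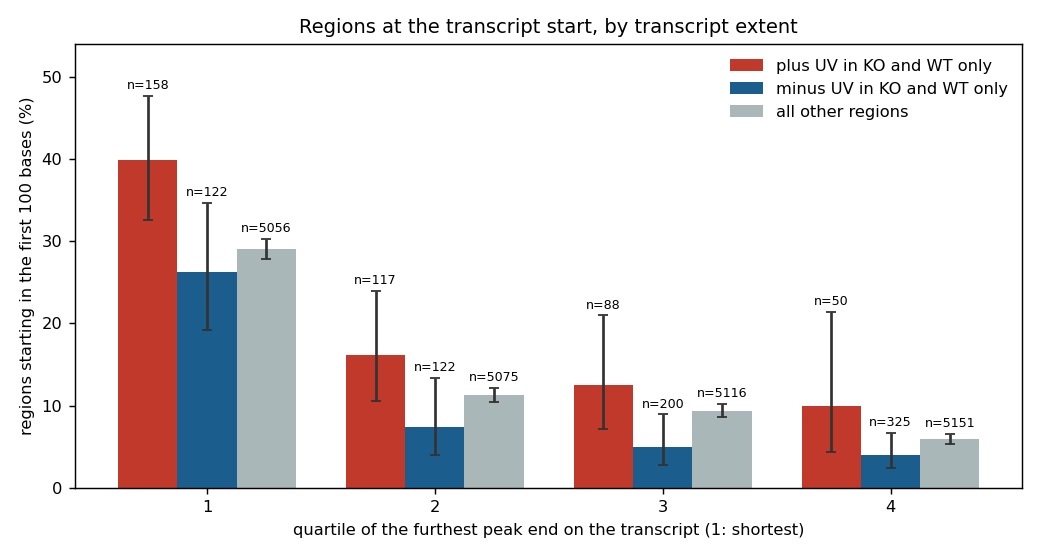
Percent of regions that begin in the first 100 bases of the transcript (y axis), by quartile of the furthest peak end (x axis), for regions with UV only in both genotypes (red, left), without UV only in both genotypes (blue) and all other regions than the red ones (grey). Bars show shares with 95% Wilson intervals and the number of regions; the red bar is the highest in each quartile, from 39.9% in the shortest to 10.0% in the longest.

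Of the 98 start members, 35 began at base 1, and 81 in the first 50 bases, with a median end at base 172.5. A peak of a list without UV lay downstream on the transcript of 45 of them, and 53 (54.1%) had none on their transcript, against 137 of the other 315 members (43.5%). YTHDC1, the nuclear m6A reader (chromosome 4, 68310387 to 68350090), showed the first arrangement. Its member lay at bases 31 to 130 in KO plus UV and 21 to 120 in WT plus UV. Downstream, KO plus UV held 2 further peaks and WT plus UV 3, and KO minus UV and WT minus UV held 2 and 3, the nearest of them 44 bases from the member, in WT minus UV. POLR2B, the second largest subunit of RNA polymerase II, carried a peak from base 1 in both UV lists, with centres 2 bases apart and the WT peak ending at base 115. Its nearest peak without UV lay 1785 bases downstream.

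The letters at the start did not set the start members apart from other regions there. Among 96 start members without a copy number, 61 had a gene with 1 start in the promoter table. Of these 61 genes, 33 (54.1%, 41.7 to 66.0) begin with A, against 53.7% of 1690 genes with another region at the start, a difference of 0.371 points (-12.2 to 12.5). Over all 22114 genes with 1 start in the table, 44.3% begin with A. The start members differed from them by 9.85 points (-2.55 to 21.8). A first base A preceded by C stood at 44.3% of the 61 and 29.1% of all these genes (15.1 points, 3.37 to 27.6). Among the 1690 it stood at 40.3% (3.97 points, -8.02 to 16.6). None of the 61 begins with T, against 8.09% of all these genes (-8.09 points, -8.45 to -2.15) and 0.355% of the 1690. The start of 58 of the 61 genes lay at the outer end of the gene, and 32 of those begin with A. The letters GGAC, the core of the common m6A motif, occurred in the first 50 bases of 14.8% of the 61 on the transcript strand and of 18.0% on the opposite strand. They occurred on the transcript strand of 20.4% of the 1690 and of 18.7% of all genes in the table. In the 9 sequences printed above, GGAC stands in the capitals of B3GALNT2 alone. A match is no site, and no match says only that the letters are not in this window.

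Toward the other end of the extent, unlike at the start, no difference between members and other regions was detectable beyond counting error. The relative position of the region centre had a median of 74.8% of the extent in the members, 74.6% in the mirror set and 76.5% in other regions. A centre in the last 25% of the extent was found for 49.2% of the members and 51.3% of the other regions (difference -2.12 points, -6.96 to 2.73).

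Genes of the members were shorter than those of the mirror set. Their median genomic span was 31.1 kb, with quartiles at 13.4 and 69.4 kb, against 66.5 kb for the mirror set, with quartiles at 27.3 and 137 kb. Spans above the median of all transcripts with a peak, 33.7 kb, belonged to 185 of 389 member transcripts (47.6%), against 68.3% of mirror transcripts, a difference of -20.7 points (-26.8 to -14.5). Against all other regions the difference was -2.60 points (-7.61 to 2.47), an interval that includes 0. Transcripts of KO plus UV alone stood at 46.9% and those of both UV lists with KO minus UV at 46.5%. The members stood below those of both UV lists with WT minus UV (54%), by -6.49 points (-12.7 to -0.2). The members also stood below those of WT plus UV alone (56.9%), by -9.36 points (-14.8 to -3.89). Over whole lists the median span was 31.6 kb for KO and 34.4 kb for WT with UV, and 34.5 kb for KO and 36.6 kb for WT without UV.

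**Figure D4:**
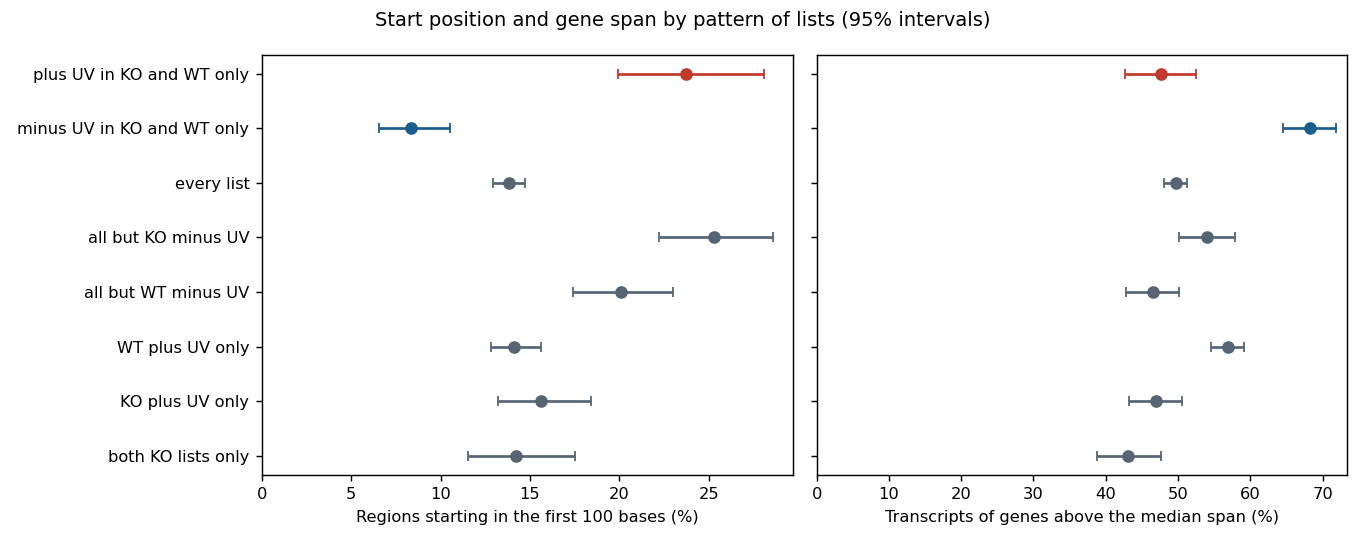
Left, percent of regions that begin in the first 100 bases; right, percent of transcripts whose gene span is above the median of all transcripts with a peak, for the regions with UV only in both genotypes (red), their mirror without UV (blue) and 6 other patterns (grey), with 95% Wilson intervals. The red point stands at 23.7% and 47.6% and the blue one at 8.32% and 68.3%.

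RBM15B, which helps to bring the m6A writing complex to its target RNAs, had the largest total member length of the genes with 2 members (chromosome 3, 51391285 to 51397908). In KO plus UV its peaks lay at bases 1221 to 1500, 1521 to 1620 and 2701 to 2825. In WT plus UV they lay at 1506 to 1900, 1981 to 2244 and 2595 to 2812. Neither list without UV held a peak on it. Both members therefore come from 2 of 3 peaks per list, and the remaining KO and WT peaks did not overlap each other. Of 21 m6A writers, readers and erasers with a peak in any list, RBM15B and YTHDC1 held members. In all, 3 of the list's 46 regions (6.52%) were members, against 1.98% of all regions, and 2 of the 3 lay on RBM15B. With peaks within 100 bases merged, 2 members remained. METTL14 and YTHDC2 each held a mirror region (4.35% of the list, against 3.70% of all regions). These shares rest on few regions and are given as a description.

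Other genes with 2 members were of mixed function. SRBD1, a protein with an RNA-binding domain (chromosome 2, 45388680 to 45611267), was covered at 350 to 618 and 2781 to 3081 in KO plus UV. Its WT plus UV peaks lay at 349 to 644 and 2754 to 3048, and there was none without UV. BRINP1, a gene of the nervous system, carried 162 and 228 bases shared by the KO and the WT peak in its 2 members, and WT plus UV held a further peak there. The genes that encode ZNF256, a zinc finger protein, SHOC1, a meiotic recombination factor, the reticulon RTN2, the kinase MAP3K12 and ITGB1BP1, which binds the tail of an integrin, also had 2 members and no peak without UV. On MAP3K12 and ITGB1BP1 the first member began at base 1.

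In APBB2, RHOBTB1, FAM171B, ZNF281 and GLIPR2, the 2 members stood on transcripts with peaks without UV. ZNF281, a zinc finger transcription factor (chromosome 1, 200404951 to 200410036), had members whose KO plus UV peaks lay at 621 to 805 and 2651 to 2792. The WT plus UV peaks lay at 631 to 805 and 2513 to 2760. Without UV it held 1 peak per list, at 2411 to 2510 in KO and 1081 to 1240 in WT cells. On ZNF281 the downstream member lay 2 bases from a KO minus UV peak, and on FAM171B 22 bases from a WT minus UV peak.

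**Figure D5:**
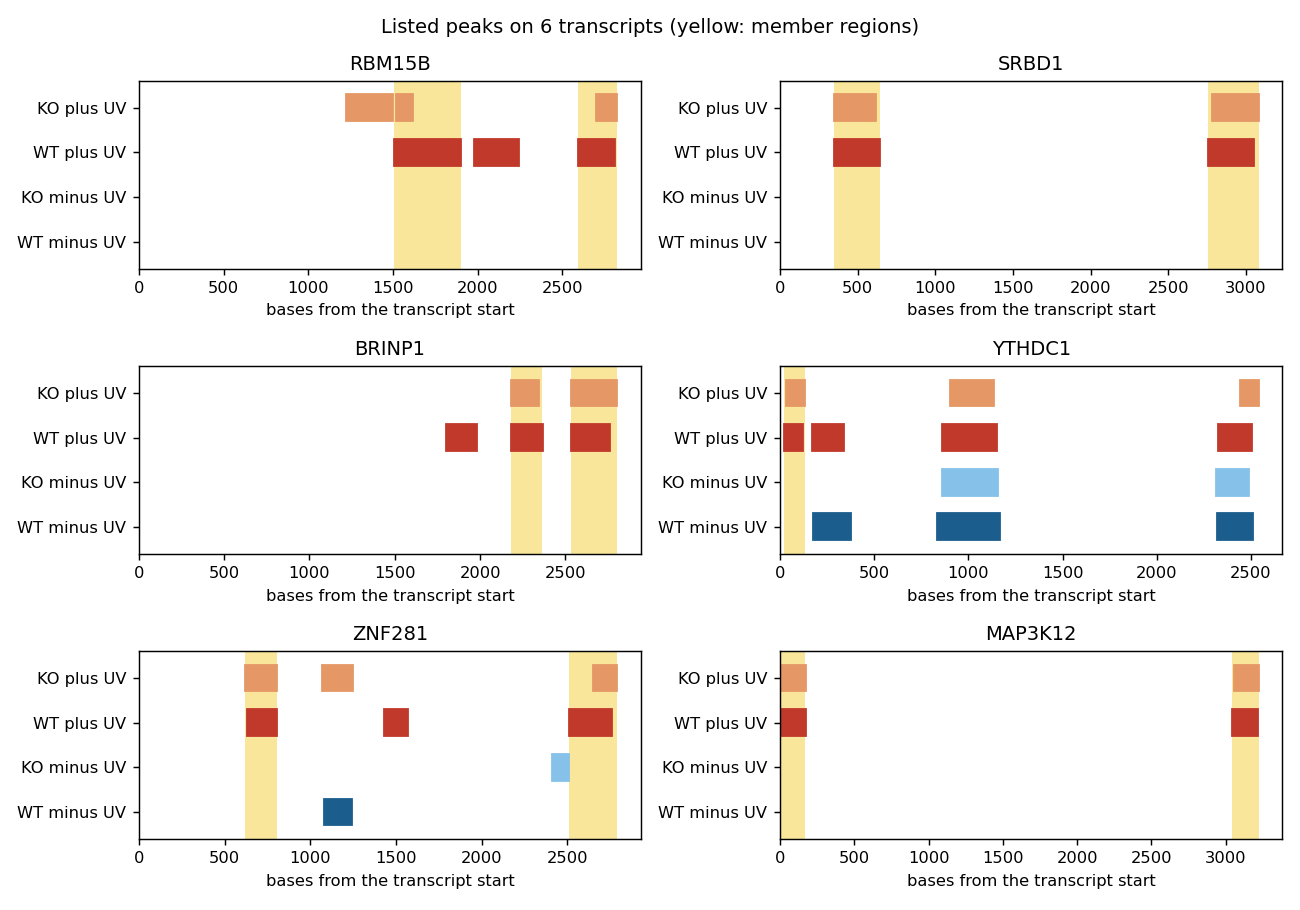
Listed peaks on 6 transcripts (x axis, bases from the transcript start; y axis, the lists with UV above those without, KO above WT in each), with members in yellow. RBM15B, SRBD1, BRINP1 and MAP3K12 have no peak without UV, whereas on YTHDC1 and ZNF281 the members stand on transcripts with peaks in both lists without UV.

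The longest stretch shared by the KO and WT peak was 315 bases on PELP1, a coregulator of steroid receptors (chromosome 17, 4669774 to 4704137), with the KO plus UV peak at 2850 to 3164 and the WT plus UV peak at 2844 to 3170. A KO minus UV peak lay 63 bases upstream of it. The homeobox gene EMX2 followed with 309 bases and no peak without UV, and the dynactin subunit gene DCTN5 with 280 bases, where a peak without UV lay 90 bases away. ST6GALNAC5, a sialyltransferase, shared 270 bases, BORCS6, which helps to position lysosomes, 251, and NOL12, a nucleolar protein, and CTIF, which acts in translation of newly exported mRNA, 250 each. ARGLU1, a splicing regulator, shared 244 bases, with the member at 511 to 754 in KO plus UV and 481 to 792 in WT plus UV. Without UV its single peak lay further along, at 831 to 976 in KO and 881 to 997 in WT cells. The protocadherin PCDH7 shared 240 bases. Of the transcripts without a peak minus UV, those of THEM4, a thioesterase, RERE, a nuclear receptor coregulator, and CHAC1, which degrades glutathione and is induced by stress of the endoplasmic reticulum, were also among the longest. RERE had 6 peaks in WT plus UV and 1 in KO plus UV.

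Lists of the damage response held between 0 and 3 members each, and at the 1.98% of all regions lists of their size would hold few. Of 23 nucleotide excision repair genes and 14 translesion synthesis genes with a peak in any list, 0 held a member among 40 and 27 regions. In the checkpoint and break repair list, 3 of 89 regions (3.37%) were members. TOPBP1, an activator of the ATR kinase, had its member at 2501 to 2600 in KO plus UV and 2411 to 2590 in WT plus UV, with a KO minus UV peak 100 bases downstream. Another was on MDC1, a checkpoint mediator listed under a copy-numbered transcript, with its member at 5951 to 6050 in KO plus UV and 5921 to 6020 in WT plus UV. Among p53 targets 1 of 52 regions was a member (1.92%), on PLK2. There the KO and WT peaks with UV both began at base 2463, 21 bases downstream of a peak without UV. With peaks within 100 bases merged, 0 members remained among p53 targets.

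In the other lists the share of members was between 0 and 4.49%. Most of these lists are short sets of chosen symbols and do not cover their class, and other genes of the same classes did hold members, such as the splicing factor genes SLU7 and SF3A3, the noncoding LINC00673 and the histone methyltransferase gene EHMT2. Of the 28 lists, 12 held no member, among them those of immediate early genes (0 of 39 regions), heat shock and unfolded protein genes (0 of 40), splicing factors and helicases (0 of 76), long noncoding RNAs (0 of 19), mitosis and cell cycle genes (0 of 74) and chromatin regulators (0 of 218). Chromatin regulators held 7 mirror regions (3.21%, against 3.7% of all regions), 3 of them on KMT2A. Blood, epithelial and neuronal markers had 1, 8 and 4 regions in all and 0 members. Of 34 regions on osteoblast lineage genes 1 was a member (2.94%), on COL5A1, and 4 were mirror regions (11.8%), 3 of them on RUNX2.

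Genes with HOX, FOX or SOX symbols held 4 members in 89 regions (4.49%), on HOXA11, HOXD8, FOXF2 and SOX18. The list was matched by symbol, so the homeobox members EMX2 and TLX1 are outside it. Each of the 4 had a single peak in each UV list and none without UV. HOXA11, a limb and reproductive tract patterning gene, was covered at 868 to 1063 in KO plus UV and 851 to 1140 in WT plus UV. HOXD8 was covered at 1321 to 1520 in KO plus UV and 1303 to 1508 in WT plus UV. FOXF2, a forkhead factor of mesenchyme, was covered at 1402 to 1588 in KO plus UV and 1411 to 1640 in WT plus UV. SOX18, a factor of vessel development, was the least alike of them, with centres 105 bases apart. Collagens, laminins and integrins, with symbols matched by their first letters, held 4 of 109 (3.67%): on COL3A1, on COL5A1 and the 2 on ITGB1BP1. RNF and TRIM ubiquitin ligases held 6 of 193 (3.11%), on TRIM11, RNF185, TRIM5, RNF187, TRIM41 and TRIM58, with 5 mirror regions (2.59%). For ZNF genes 12 of 550 regions were members (2.18%) and 30 were mirror regions (5.45%). ZNF747, with 238 bases shared by the KO and WT peaks, ZNF256, ZNF668, ZNF281, ZNF205 and ZNF764 were the 6 with the longest shared stretch. Solute carriers held 6 of 400 (1.5%), SLC25A46 with the longest shared stretch, and 21 mirror regions (5.25%), 6 of those on SLC5A3. These shares rest on few regions. They are set beside the 1.98% of all regions for members and 3.7% for mirror regions as a description.

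Noncoding transcripts carried 9 members (2.18%), against 2.85% of the other regions (difference -0.669 points, -1.72 to 1.25). Among them the transcribed pseudogene FAM86DP shared 185 bases between the KO peak at 1567 to 1755 and the WT peak at 1571 to 1755, the antisense RNA DLGAP1-AS1 shared 170, and the pseudogenes RPLP0P2 and PLEKHA8P1 130 each. SLX1B-SULT1A4 and the copy-numbered SLX1A-SULT1A3, near-identical read-through loci, carried the same peaks, at 1 to 220 in KO plus UV and 1 to 110 in WT plus UV, and may be 1 signal listed for both. Copy-numbered transcripts carried 12 members (2.91%), against 1.04% of the other regions, and included RING1 and EPHB6 with 2 members each. By chromosome, the share of regions that were members ran between 0.87% on chromosome 21 (2 of 230) and 3.15% on chromosome 4 (23 of 731), and chromosome 1 held the most, 36.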

How the data were processed

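Immunoprecipitated and input RNA were sequenced from 24 samples as single-end reads of 50 bases (12 IP, 12 input), per the labels' protocols. Per the submitters' processing notes, TopHat2 2.0.14 and build hg38 were used. The caller, threshold and replicate pooling: not given in the sources used here. These deposited lists hold transcript positions of peaks, values with no unit of signal (other), as the authors made them, 1 list per condition.

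Transcripts were matched by accession to a RefSeq gene table (GRCh38.p14), 9563 of 9674, and gene starts to the RefSeq promoter table of the same build. Gene coordinates and spans come from that table. Regions were built with Python 3.11.15 and pandas 2.3.3, and the merging was tested on simulated data. Shares carry 95% Wilson and differences 95% Newcombe intervals. No test across conditions was made. The members and the 28 gene lists were chosen with earlier results of these data known. Named genes are those with 2 members (up to 15), the longest shared stretches, the longest members on transcripts with no peak without UV, up to 6 per gene list, the members nearest a peak without UV, and up to 5 noncoding ones. Other genes were named after their values were seen: TYMS, TCOF1, SNX8, TLX1, SLU7, SF3A3, LINC00673, EHMT2, MDC1, RING1, EPHB6, SLX1A-SULT1A3 and the genes of the mirror set beyond its 3 longest, the start sequences, and all genes of the closing section. Some named genes of these rules are not reported here.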

Additional observations from a re-analysis of the deposited data

How the results depend on the processing

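No paired analysis was possible because the lists hold no values per replicate, and for the same reason no replicate could be left out. An annotated transcript length was not used here, so that alternative was not run, nor was exon number. Of 26 alternatives, 19 stayed within the range set for them, 1.5 times a count or the 95% interval of a share or the like. Requiring both peaks to be at least 150 bases wide left 191 members and 408 mirror regions. This setting drops narrower peaks, and the median centre distance in the members left was 12.5 bases. Counting genes in place of regions gave 188 and 217. The share of members on transcripts with no peak without UV was 51.3% when peaks within 100 bases were merged and 51.2% when members with a peak without UV within 100 bases were left out, both of which remove members beside other peaks. The number of members was between 374 and 434 with another merging rule, with copy-numbered transcripts left out or with near peaks left out. The share at the transcript start was 27.4% for the first 200 bases. The values within quartiles of extent, the merged gene lists and the alternatives for position, width, gene span and noncoding share were chosen after seeing the data. The unknown depth and the unequal numbers of IP libraries limit every count.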

Other observations

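Further members belonged to groups that were named after the members had been seen, so their counts support nothing beyond themselves. Of 18 ADP-ribosylation genes with a peak in any list, PARP2, HPF1, PARG and PARP10 held a member each. These were 4 of 43 regions (9.3%, against 1.98% of all regions). PARP11 and PARP4 held a mirror region each (4.65% of the 43, against 3.7% of all regions). PARP2, a DNA-damage-activated polymerase, carried a single peak per UV list, at 1 to 100 in KO and 1 to 130 in WT cells, and none without UV. HPF1, which directs PARP enzymes to modify serine, also began at base 1, with the KO plus UV peak ending at 155 and the WT plus UV peak at 154, and had a WT minus UV peak 595 bases downstream. On PARG, the enzyme that removes ADP-ribose chains, the member lay at 1291 to 1390 in KO plus UV and 1221 to 1392 in WT plus UV, and KO minus UV held 3 peaks elsewhere against 0 in WT minus UV. Of 15 base excision repair genes, the glycosylases UNG and MBD4 held a member each, 2 of 20 regions (10%, against 1.98%), with no peak without UV. MBD4 carried its peaks at 783 to 971 in KO plus UV and 783 to 996 in WT plus UV.

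Single members, picked by hand with no list or denominator, are given next as values and stand for no group. The mitosis and cell cycle list held 0 of 74 regions as members and 4 as mirror regions (5.41%, against 3.7% of all regions). KIF18A, a kinesin of chromosome alignment, held 2 members and no peak without UV, one of the members at 10 to 140 in KO plus UV and 37 to 140 in WT plus UV. SPC25 and NUF2, subunits of the NDC80 complex of the kinetochore, had a member each. On SPC25 it lay at 1 to 156 in KO plus UV and 1 to 154 in WT plus UV, with no peak without UV, and on NUF2 the KO and WT peaks with UV shared 85 bases. CDT1, a licensing factor, carried its member at 39 to 180 in KO plus UV and 36 to 170 in WT plus UV. EXO1, an exonuclease of mismatch repair and break resection, carried it at 40 to 170 and 46 to 250 in the same order. Transcripts of the nuclear receptor corepressor NCOR1, the demethylase KDM1A and the bromodomain proteins BRD2 and BRD3 also held a member each, and of these BRD3 alone had no peak without UV.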
